A study of Mus musculus with 3 samples.

Results

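The genes described are 8 genes of the major histocompatibility complex (MHC) class II pathway: Ciita, Cd74, H2-Aa, H2-Ab1, H2-Eb1, H2-DMa, H2-DMb1 and H2-Oa. They were taken by symbol from the deposited count table as members of the pathway, and all 8 were found among its 46095 gene symbols. The libraries came from prostate tumors of TRAMP mice, a C57BL/6 model in which the SV40 oncoprotein is expressed in the prostatic epithelium, at 37 weeks of age. The knockout mice were Phf8-KO TRAMP mice, which carry a knockout of the X-linked histone demethylase gene Phf8 beside the TRAMP transgene, and gave 2 libraries (Phf8-KO1 and Phf8-KO2, the knockout pools). The control was 1 library (TRAMP) from TRAMP mice with wild-type PHF8. Each library was RNA pooled from 3 mice, and the sources do not say if the knockout pools come from different mice or which lesions were taken.

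MHC class II molecules are pairs of an alpha and a beta chain that carry peptides from endocytosed proteins to the surface of antigen-presenting cells, where CD4 T cells read them. Dendritic cells, macrophages and B cells make them constantly or on activation, and many other cells, epithelial cells included, can make them after interferon gamma. CIITA, a co-activator that does not bind DNA itself, switches on the chain genes and the invariant chain gene Cd74 by docking on RFX, CREB and NF-Y factors that sit on a shared promoter module.

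That module has an X box and, closer to the gene, a Y box, and its letters are shown because it is the element through which CIITA is known to act. In 300-base promoter windows from RefSeq (GRCm38.p6, 250 bases before to 50 after each start), available for 5 of the 8 genes, the search was for GNAAC followed by TGATTGG with 15 to 35 bases between, on both strands, a pattern written with the sequences in view. It was found in H2-Aa, H2-Eb1, H2-DMb1 and H2-Oa, and in neither of the 2 windows of H2-DMa. Of all 32851 windows 187 (0.569%) held it, while TGATTGG alone was in 7.82%. The stretches below run 5′ to 3′ on the strand of the gene, with the X box core and the Y box in capitals. They lie at chr17:34287859-34287912 (minus strand) for H2-Aa, and on the plus strand at chr17:34305768-34305820 for H2-Eb1, chr17:34153089-34153142 for H2-DMb1 and chr17:34092295-34092348 for H2-Oa.
H2-Aa: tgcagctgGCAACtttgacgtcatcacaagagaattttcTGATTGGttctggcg
H2-Eb1: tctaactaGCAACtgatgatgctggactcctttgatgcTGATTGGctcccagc
H2-DMb1: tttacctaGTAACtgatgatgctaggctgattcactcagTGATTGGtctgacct
H2-Oa: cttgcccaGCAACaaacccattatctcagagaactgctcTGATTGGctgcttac
The gap between the capitals was 26 bases in H2-Aa, H2-DMb1 and H2-Oa and 25 bases in H2-Eb1. A match of letters is a description and not a site of binding.

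Total counts were between 26747443 and 31876182 per library. Levels are given as CPM, scaled counts (TMM method) per 1000000 counts of the library, on which 3 counts, taken as the floor, were worth 0.0905 to 0.113 CPM. Phf8 itself had 399 and 528 counts in Phf8-KO1 and Phf8-KO2, against 561 in TRAMP, 0.771 and 0.821 times the TRAMP level after scaling, and since the deleted part of the gene is not stated, its count does not check the genotype. The epithelial markers Epcam, Cdh1, Krt8, Krt18 and Krt19 summed to 7140 and 6324 CPM in the knockout pools, against 4854 CPM in TRAMP, and all 4 prostate luminal markers were present. The libraries also held other tissues in unequal amounts. Skeletal muscle markers summed to 72.4 CPM in Phf8-KO1, 10.4 CPM in Phf8-KO2 and 1256 CPM in TRAMP, adipocyte markers to 5.97 and 0.935 CPM against 388 CPM, and seminal vesicle markers to 1396 and 2001 CPM against 112 CPM. Their part in the values below was not tested.

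One feature of the table decides how far the members can be read. The 6 chain genes lie on chromosome 17 between H2-K1 and H2-D1 (chr17:33996012-35267497), where nearly every gene had few counts in every library, genes that all cells use included. Of 82 protein-coding genes in this span, 68 in Phf8-KO1, 68 in Phf8-KO2 and 70 in TRAMP had at most 10 counts, and the median gene had 0 counts in each. In the rest of chromosome 17, with 830 genes, the share with at most 10 counts was 31.9%, 31.6% and 28.4% in the same order of libraries, and the median was 241.5, 264.5 and 228 counts.
Csnk2b, a subunit of casein kinase, Bag6, a chaperone, and Ddx39b, an RNA helicase, had 0 counts in every library. Brd2, a chromatin reader, had 0 counts in Phf8-KO1, 15 in Phf8-KO2 and 0 in TRAMP. These ubiquitous genes were chosen after their values were seen. H2-K1 and the locus D17H6S56E-5 were the 2 genes of the span with more than 100 counts in every library. Values of the chain genes, whether counts, CPM or fold changes, therefore describe this table and cannot be read as how much class II mRNA the tumors held. Cd74 and Ciita lie on other chromosomes, among neighbors with more counts than the genes of the span. The median of 29 genes within 1 Mb of Cd74 was 120 and 94 counts in the knockout pools and 140 counts in TRAMP. For 23 genes around Ciita the median was 120 and 134 counts, against 105 counts. Both lay below the median over all chromosomes other than 17, which was 256 and 301 counts in the knockout pools and 247 counts in TRAMP. Those 2 members carry the description, and the cause of the low counts in the span was not tested.

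**Figure D1:**
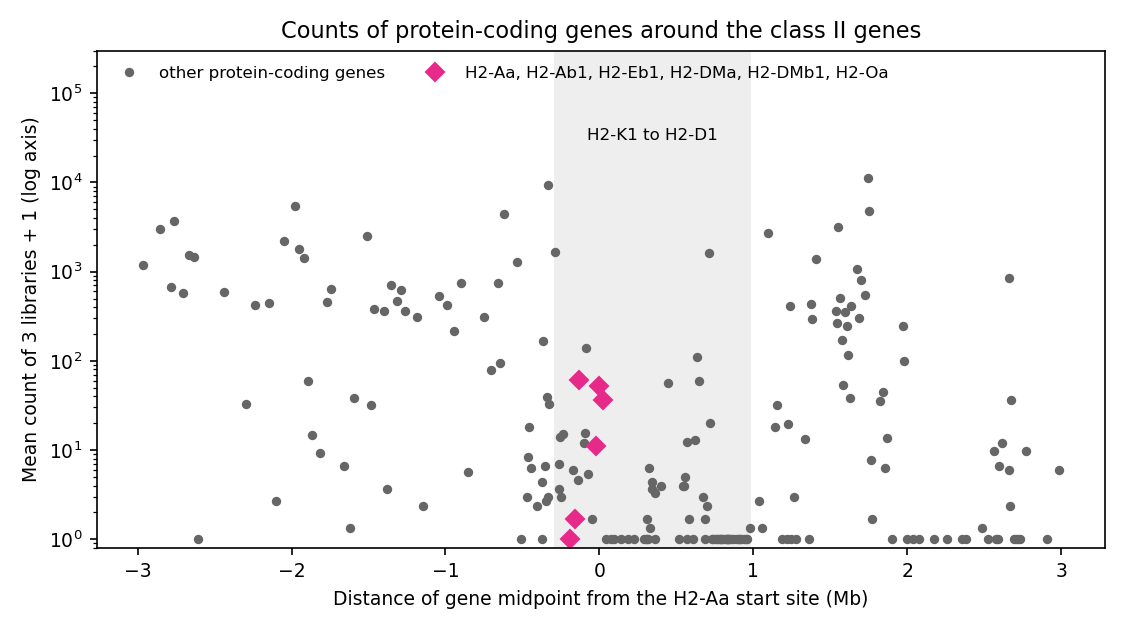
Mean count of the 3 libraries plus 1 (log axis) of each protein-coding gene by the distance of its midpoint from the start site of H2-Aa on chromosome 17, in Mb, with the class II chain genes as diamonds and the span between H2-K1 and H2-D1 shaded. Most genes of the shaded span sit at or near the bottom of the axis, while many genes on either side stand far above it.

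Ciita, the regulator of the set (chr16:10480014-10531064), had few reads. Its counts were 36 in Phf8-KO1 and 32 in Phf8-KO2, against 75 in TRAMP, that is 1.35 and 0.965 CPM against 2.60 CPM. Both knockout pools were below TRAMP, at 0.521 times its level in Phf8-KO1 (95% exact counting interval 0.340 to 0.784) and 0.372 times in Phf8-KO2 (0.238 to 0.570), and these intervals overlap each other. The Phf8-KO mean was 1.16 ± 0.272 CPM (SD, n = 2). The log2 fold change was -1.16 with a standard error of 0.64, which missed the threshold in edgeR's quasi-likelihood test (adjusted p = 0.319, Benjamini-Hochberg over 18216 genes). Ciita overlaps Dexi on the opposite strand, which had 744 and 959 counts in the knockout pools and 756 in TRAMP, and without a stated strand setting reads of the shared part cannot be told apart.

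Cd74 encodes the invariant chain, which fills the groove of new class II molecules, guides them to endosomes and also serves at the cell surface as the receptor of the cytokine MIF. It was by far the most counted member, with 3202 counts in Phf8-KO1 and 1181 in Phf8-KO2, against 4619 in TRAMP. In CPM these were 120 and 35.6 in the knockout pools, against 160 in TRAMP. TRAMP was the highest library, Phf8-KO1 stood close below it and Phf8-KO2 far below both. Phf8-KO1 had 0.752 times the TRAMP level (95% exact counting interval 0.718 to 0.787) and Phf8-KO2 0.223 times (0.209 to 0.238), so that the pools of the same genotype lay farther apart than Phf8-KO1 lay from TRAMP.
The Phf8-KO mean was 77.9 ± 59.8 CPM (SD, n = 2). The log2 fold change was -1.04 with a standard error of 0.75, and it missed the threshold too (edgeR's quasi-likelihood test, adjusted p = 0.423, Benjamini-Hochberg). Without Phf8-KO2 the log2 fold change of the class II sum, nearly all Cd74, was -0.43, and without Phf8-KO1 it was -2.10, each a value with no test.

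**Figure D2:**
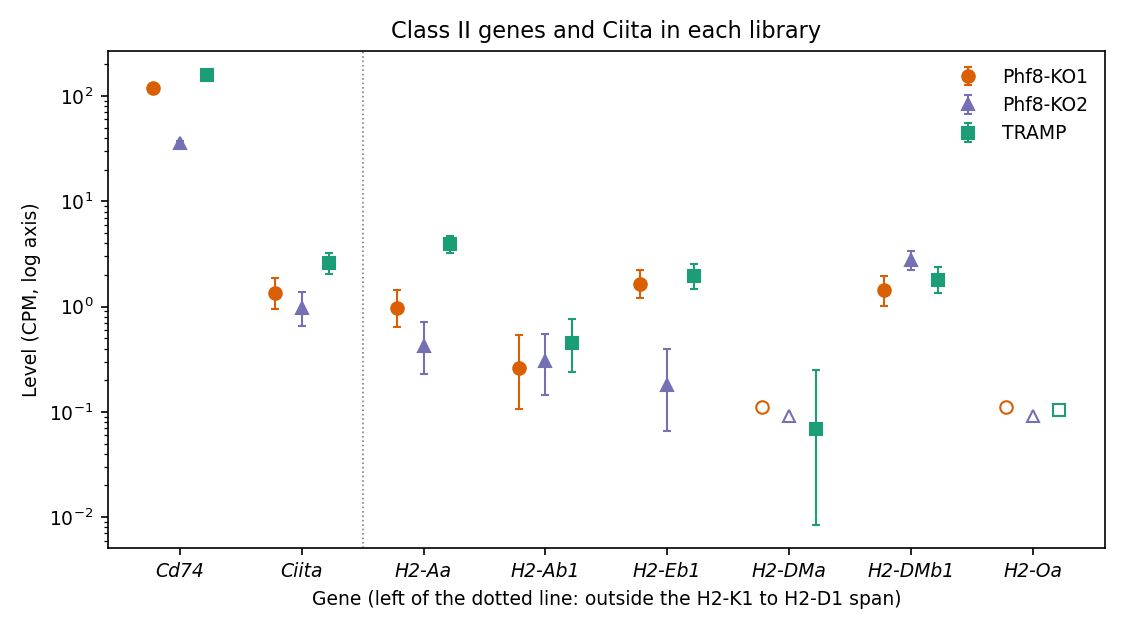
Level in CPM (log axis) of each gene in Phf8-KO1, Phf8-KO2 and TRAMP, with 95% exact counting intervals and open symbols at the floor of 3 counts where a library had 0 counts. Cd74, at 120 and 35.6 CPM in the knockout pools and 160 CPM in TRAMP, stands far above the other genes, and Ciita lies below TRAMP in both knockout pools.

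The classical chains present peptides at the cell surface as pairs of an alpha and a beta chain. Whether such pairs formed in these mice cannot be told from RNA counts. H2-Aa, the alpha chain of I-A (chr17:34282744-34287823), had 26 counts in Phf8-KO1 and 14 in Phf8-KO2, against 113 in TRAMP, or 0.975 and 0.422 CPM against 3.91 CPM. Both knockout pools were below TRAMP, and the log2 fold change of -2.49 (standard error 0.77) was the largest of the set in size. It missed the threshold of edgeR's quasi-likelihood test after Benjamini-Hochberg adjustment (unadjusted p = 0.0338, adjusted p = 0.158). H2-Ab1, the beta chain that pairs with it (chr17:34263227-34269418), had 7 and 10 counts in the knockout pools, against 13 in TRAMP. These differ by no more than counting error allows, since the exact intervals of both ratios to TRAMP, 0.197 to 1.58 and 0.263 to 1.66, include no difference.
H2-Eb1, the beta chain of I-E (chr17:34305867-34316674), had 44 counts in Phf8-KO1, 6 in Phf8-KO2 and 56 in TRAMP. Phf8-KO1 was level with TRAMP within counting error (ratio 0.852, interval 0.561 to 1.29), and only Phf8-KO2 stood low (ratio 0.0934, interval 0.0329 to 0.216). Its log2 fold change of -1.09 had a standard error of 1.37 (edgeR's quasi-likelihood test, adjusted p = 0.635 after Benjamini-Hochberg). The antisense gene Gm20513 overlaps it, and their reads cannot be told apart.

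H2-DM removes the last fragment of the invariant chain from the groove so that peptide can enter, and H2-O restrains H2-DM. H2-DMb1, the H2-DM beta chain (chr17:34153191-34160229), was the member whose pools lay on opposite sides of TRAMP, with 38 counts in Phf8-KO1 and 92 in Phf8-KO2, against 52 in TRAMP. The log2 fold change was 0.23 (standard error 0.73) and turned to -0.33 without Phf8-KO2. H2-DMa, the alpha chain of H2-DM (chr17:34119693-34139101), had 0 and 0 counts in the knockout pools and 2 in TRAMP, and it overlaps Brd2. H2-Oa, the alpha chain of H2-O (chr17:34092379-34095234), had 0 counts in every library. Neither had the counts to enter the test, and 0 counts allow up to the floor of 3, so nothing can be said of their absence. Of 4 further class II chain genes in the table, none was tested. Of those in the span, H2-DMb2 had 3 and 0 counts in the knockout pools and 8 in TRAMP. H2-Ob had 0 and 0 against 2, and H2-Eb2 had 0 throughout. H2-Ea-ps, whose symbol marks a pseudogene and for which no RefSeq position was at hand, also had 0 throughout.

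Of the 8 members, 6 entered the test, and 0 were called lower (background 0.0384% of genes) or higher (background 0%) by edgeR's quasi-likelihood test, where a call needed an adjusted p under 0.05 with a change of more than 2-fold. By unadjusted p alone (under 0.05), 1 member, H2-Aa, was lower (background 12.2%) and 0 were higher (background 14.9%). DESeq2 called 0 members lower (background 4.59%) and 0 higher (background 9.42%), and limma-voom called 0 members, as it called 0 of all genes in either direction. Without any test, 5 of the 6 lay below TRAMP in both knockout pools (background 42.8%) and 0 above it in both (background 40.8%). The median log2 fold change was -1.06 over these 6, against 0.01 over all genes tested, and 3 of the 5 lie in the sparsely counted span.

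The 6 chain genes together held 115 and 122 counts in Phf8-KO1 and Phf8-KO2, against 236 in TRAMP. Summed with Cd74 the level was 124 and 39.3 CPM in the knockout pools and 168 CPM in TRAMP, of which Cd74 was 96.5%, 90.6% and 95.1%. Per kilobase of exon, Cd74 had 71.5 and 21.2 CPM in the knockout pools and 95.2 CPM in TRAMP, and Ciita had 0.142 and 0.101 CPM against 0.272 CPM.

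The genes whose profile was most like that of the class II sum were sought among 10860 genes with a mean of at least 5 CPM, by the Euclidean distance between their log2 ratios to TRAMP in Phf8-KO1 and Phf8-KO2 and those of the sum, -0.43 and -2.10. Over 3 libraries this is a loose description, and 7 genes came within 0.25. The nearest was Tmem176b, a membrane protein gene also used by myeloid cells, with 495 and 148 CPM in the knockout pools and 644 CPM in TRAMP. Plbd1 had 9.49 and 2.71 CPM against 12.6 CPM, and Glipr1 had 5.89 and 1.93 CPM against 8.54 CPM. Next came Defb50, a beta-defensin gene, with 1328 and 476 CPM in the knockout pools and 1905 CPM in TRAMP, and Trf, the transferrin gene, with 40.2 and 11.2 CPM against 50.4 CPM.

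Markers of the cells that make class II molecules were lower in the knockout pools along with Cd74 and Ciita. In bulk tissue, fewer cells of a type and less RNA per cell cannot be told apart. Macrophage markers summed to 246 and 113 CPM in the knockout pools, against 480 CPM in TRAMP. Of these, 8 of 8 lay below TRAMP in both pools (background 42.8%). Pan-leukocyte markers summed to 77.8 and 41.0 CPM against 160 CPM, with 4 of 5 below TRAMP in both pools (background 42.8%). Laptm5, at 2 and 26 counts against 5, was the exception, with Phf8-KO1 and TRAMP near the floor of 3 counts. Dendritic cell markers summed to 12.8 and 10.7 CPM against 22.7 CPM, with 7 of 9 below in both pools (background 42.8%). Batf3, a factor of cross-presenting dendritic cells and of other lineages, instead had 4.13 and 3.23 CPM in the knockout pools and 0.969 CPM in TRAMP.
B cell markers were few, at 1.05 and 0.634 CPM in the knockout pools and 10.4 CPM in TRAMP, and T cell markers summed to 14.1 and 6.88 CPM against 35.8 CPM, with Cd2 at 0 counts in every library. No marker of these 5 lists was called by edgeR's quasi-likelihood test. With an unadjusted p below 0.05, 3 macrophage, 2 pan-leukocyte, 3 dendritic cell, 2 B cell and 1 T cell markers were lower (background 12.2%) and 1 dendritic cell marker was higher (background 14.9%); 5 T cell markers were tested. DESeq2 called 4 macrophage, 2 pan-leukocyte, 1 B cell and 1 T cell markers lower (background 4.59%). The part of these cells in the levels of Cd74 and Ciita was not tested.

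**Figure D3:**
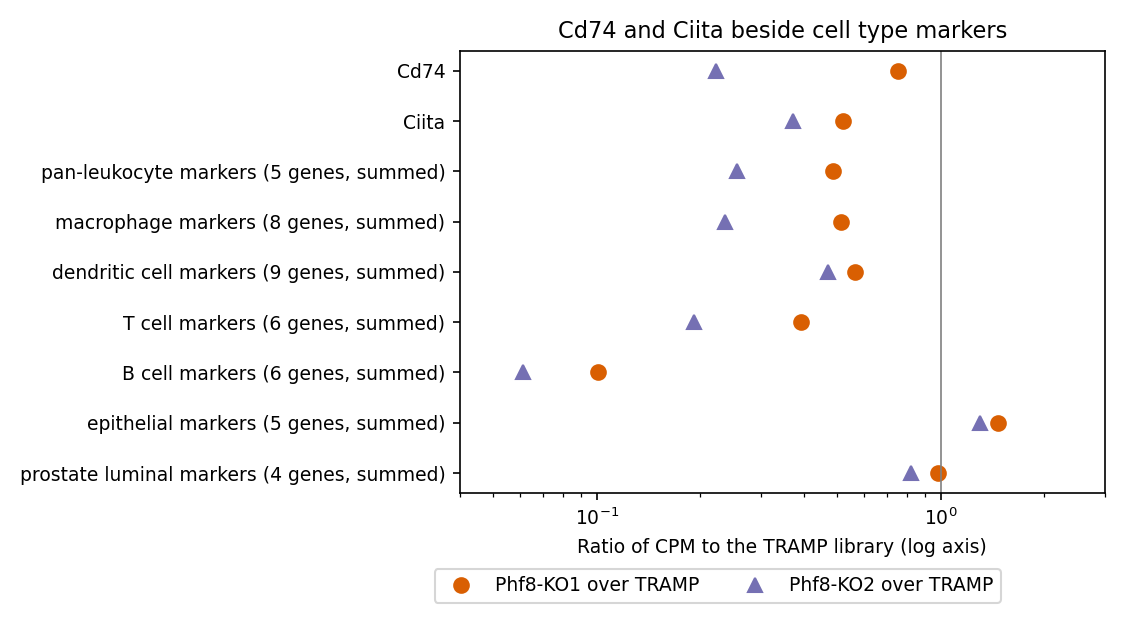
Ratio of the level in Phf8-KO1 and in Phf8-KO2 to that in TRAMP (log axis) for Cd74, Ciita and the summed markers of each cell type, with a line at equal levels. Leukocyte, macrophage, dendritic, T and B cell markers lie left of the line in both pools, as Cd74 and Ciita do, while summed epithelial markers lie right of it. Prostate luminal markers also lie left of it, at 0.980 in Phf8-KO1 and 0.819 in Phf8-KO2.

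Set against Ptprc, the CD45 gene of all leukocytes, Cd74 was not lower in the knockout pools. There were 7.08 Cd74 counts per Ptprc count in Phf8-KO1 (95% exact counting interval 6.42 to 7.84) and 3.95 in Phf8-KO2 (3.48 to 4.50), against 3.23 in TRAMP (3.05 to 3.43). Both knockout pools were above TRAMP by this measure, beyond counting error. The denominator mattered. Per count of the summed pan-leukocyte markers Cd74 stood at 1.54 in Phf8-KO1 and 0.870 in Phf8-KO2, against 1.001 in TRAMP. Per macrophage marker count it stood at 0.488 and 0.315 against 0.333, and per dendritic cell marker count at 9.39 and 3.34 against 7.03. By these 3 sums Phf8-KO1 was above TRAMP and Phf8-KO2 below it, though for macrophage markers the interval of Phf8-KO2 (0.295 to 0.337) overlapped that of TRAMP (0.322 to 0.344). The dendritic sum depended on Batf3 (110 and 107 counts in the knockout pools, 28 in TRAMP) and Zbtb46 (45 and 111 against 62). Per count of Itgax, another marker of that list, Cd74 stood at 32.7 and 17.6 against 16.8. There Phf8-KO2 was not below TRAMP, and its interval (13.8 to 22.9) overlapped that of TRAMP (14.9 to 19.0). Per T cell marker count both knockout pools were above TRAMP, at 8.54 and 5.18 against 4.47. The interval of Phf8-KO2 (4.491 to 5.995) overlapped that of TRAMP (4.175 to 4.783). Per B cell marker count both pools were also above TRAMP, at 114 and 56.2 against 15.4.
Ciita per Ptprc count was 0.0797 in Phf8-KO1 (0.0551 to 0.112) and 0.107 in Phf8-KO2 (0.0719 to 0.154), against 0.0525 in TRAMP (0.0410 to 0.0662). The interval of Phf8-KO1 overlapped that of TRAMP and that of Phf8-KO2 did not. Per macrophage marker count Ciita was 0.00549 and 0.00854 in the knockout pools, against 0.00540 in TRAMP. The intervals of both pools (0.00384 to 0.00760 and 0.00583 to 0.0121) overlapped that of TRAMP (0.00425 to 0.00678). Per dendritic cell marker count it was 0.106 and 0.0904 against 0.114, below TRAMP in both pools but with overlapping intervals (0.0727 to 0.149 and 0.0609 to 0.130, against 0.0887 to 0.145). This direction depended on the markers summed, Batf3 and Zbtb46 among them. Per Itgax count Ciita was 0.367 and 0.478 against 0.273, above TRAMP in both pools. Those intervals also overlapped (0.244 to 0.543 and 0.303 to 0.738, against 0.208 to 0.353).

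The other genes of the pathway lie outside the span, and most had more counts than the chain genes, with Ifng, Cxcr2, Socs1 and Cd40 among the scarce ones. Of 7 promoter factors, the RFX, NF-Y and CREB proteins of the module shown above, 0 were called by edgeR's quasi-likelihood test, 0 reached 0.05 before adjustment, and 0 were called by DESeq2. Of the 7, 2 lay below TRAMP in both pools (background 42.8%) and 4 above (background 40.8%). The NF-Y subunit gene Nfya had 54.3 and 84.1 CPM in the knockout pools and 35.5 CPM in TRAMP (log2 fold change 0.96, standard error 0.35), and Rfxap, an RFX subunit gene, had 15.1 and 17.1 CPM against 10.5 CPM. Creb1 had 60.2 and 66.8 CPM in the knockout pools and 85.1 CPM in TRAMP, and Nfyb had 36.9 and 34.6 CPM against 45.2 CPM.

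Interferon gamma drives Ciita in most cells through JAK kinases and IRF1. Of 6 tested genes reported here of this route 0 were called by edgeR's quasi-likelihood test or DESeq2, and 1 was lower at 0.05 before adjustment (background 12.2%). That was Irf1, with 78.6 and 81.5 CPM in the knockout pools and 125 CPM in TRAMP (log2 fold change -0.64, standard error 0.17, edgeR adjusted p = 0.138). The feedback inhibitor Socs1 had 1.20 and 1.33 CPM in the knockout pools and 0.311 CPM in TRAMP, and the receptor gene Ifngr2 had 115 and 115 CPM against 89.6 CPM. The cytokine gene Ifng had 6 and 1 counts in the knockout pools and 5 in TRAMP and was not tested.

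Peptide loading also needs proteases that trim the invariant chain. Of 10 such processing and turnover genes, 0 were called by edgeR's quasi-likelihood test, before adjustment 3 were lower (background 12.2%) and 1 higher (background 14.9%) at 0.05, and DESeq2 called 3 lower (background 4.59%). Ctsl, cathepsin L, had 89.4 and 46.2 CPM in the knockout pools and 461 CPM in TRAMP (log2 fold change -2.77, standard error 0.44, edgeR adjusted p = 0.101). Ctss, cathepsin S, which makes the last cuts of the invariant chain in antigen-presenting cells, had 94.3 and 53.2 CPM against 219 CPM (log2 fold change -1.57, standard error 0.39, edgeR adjusted p = 0.127). Sppl2a, the protease that clears its membrane stub, had 145 and 130 CPM in the knockout pools and 323 CPM in TRAMP (log2 fold change -1.23, standard error 0.20, edgeR adjusted p = 0.101). In all 3 both knockout pools lay below TRAMP, and these are the genes that DESeq2 called lower. Ifi30, a thiol reductase that unfolds antigens, went the other way with 128 and 100.3 CPM in the knockout pools and 63.9 CPM in TRAMP (log2 fold change 0.84, standard error 0.25).

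Costimulatory genes of antigen-presenting cells gave 0 calls among 5 by edgeR's quasi-likelihood test and 1 lower at 0.05 before adjustment (background 12.2%), which DESeq2 also called (background 4.59%). This was Cd86, a ligand of CD28 on T cells, with 2.48 and 1.60 CPM in the knockout pools and 10.2 CPM in TRAMP (log2 fold change -2.32, standard error 0.51, edgeR adjusted p = 0.114). Cd40 had 0.938 and 0.151 CPM against 2.11 CPM, while Icam1 had 13.4 and 7.42 CPM against 6.99 CPM and Icosl had 34.0 and 65.8 CPM against 41.1 CPM.

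CD74 also acts as the MIF receptor, and 5 genes of its ligands and co-receptors were read. Of these, 2, Mif and Cd44, lay above TRAMP in both knockout pools (background 40.8%). Another 2, Ddt and Cxcr2, lay below it in both (background 42.8%). Of 5 genes of this group 0 were called by edgeR's quasi-likelihood test, 2 were higher at 0.05 before adjustment (background 14.9%), and DESeq2 called the same 2 higher (background 9.42%). Cd44, the co-receptor through which CD74 signals, had 202 and 166 CPM in the knockout pools and 45.5 CPM in TRAMP (log2 fold change 2.01, standard error 0.24, edgeR adjusted p = 0.101). Mif had 92.3 and 132 CPM against 42.3 CPM (log2 fold change 1.41, standard error 0.31, edgeR adjusted p = 0.114). Cxcr2 was scarce, with 2 and 0 counts in the knockout pools and 18 in TRAMP, and Ddt, a relative of MIF, had 41.0 and 39.1 CPM against 43.2 CPM. Cd44 and Mif are used by many cell types, and which cells held these transcripts cannot be told from bulk RNA.

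**Figure D4:**
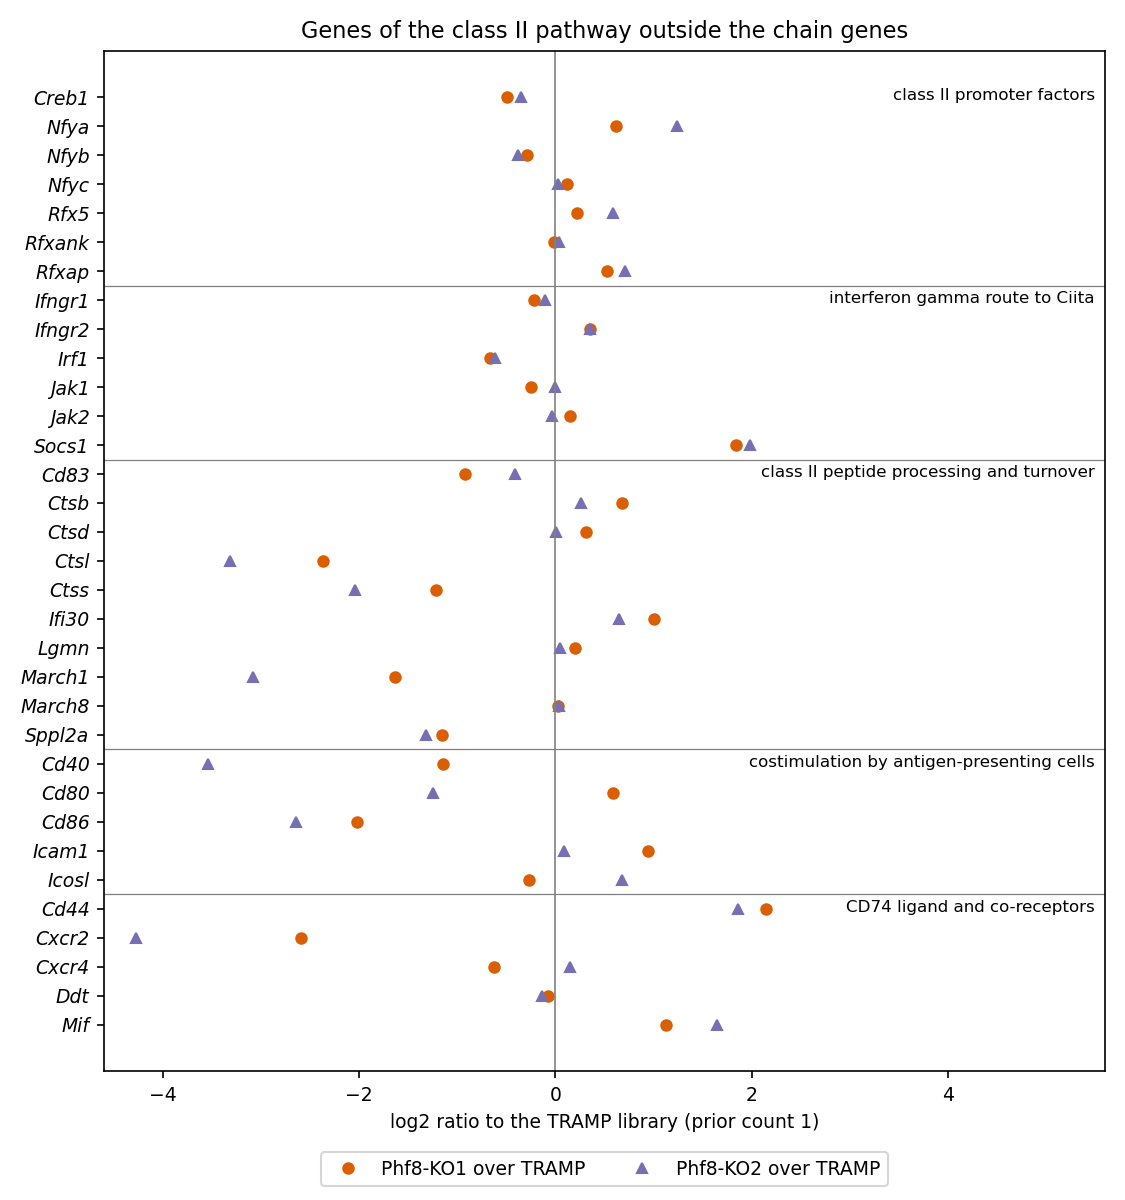
log2 ratio of Phf8-KO1 and Phf8-KO2 to TRAMP (with a prior count of 1) for the tested genes of each pathway group outside the chain genes. Ctsl, Ctss, Sppl2a and Cd86 lie left of zero in both pools, Cd44 and Mif right of it, and promoter factors on either side.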

How the data were processed

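RNA-seq of prostate tumor tissue was deposited as 1 table of raw counts per gene. The authors mapped filtered reads to GRCm38 with HISAT2 and made the deposited counts with HTSeq. The versions, annotation, strand setting and treatment of reads with several mappings are not given in the sources used here. The columns were matched to the labels by title. The analysis ran in R 4.3.3 and used edgeR 4.0.16 (TMM, filterByExpr, quasi-likelihood test, Benjamini-Hochberg over 18216 genes), limma 3.58.1 and DESeq2 1.42.0. The standard error is the log2 fold change divided by the root of the F value. The edgeR step was tested on simulated data. A call needed an adjusted p below 0.05 with a fold beyond 2 or 0.5. The study's tool, DESeq2, was an alternative, with other scalings and filters, limma-voom, a second quasi-likelihood version and leaving out each Phf8-KO pool.

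With 1 residual degree of freedom all spread comes from Phf8-KO1 and Phf8-KO2, which differed beyond counting noise (chi-square 97.5 per degree of freedom over 18010 genes), and TRAMP is assumed to vary like them. Separate mice are not stated, so p-values measure only the spread between these libraries. Counting intervals (scipy 1.17.1, 95%) and the floor of 3 counts cover counting error only. Coordinates and promoters are from RefSeq and overlaps from GENCODE, all of GRCm38. Named were the 8 members, up to 4 genes of each pathway list with the smallest p, up to 3 markers per cell type list by level, and the 5 genes nearest in profile; not every gene under this rule is reported here. Members and lists were chosen with earlier results of these data known.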

Additional observations from a re-analysis of the deposited data

How the results depend on the processing

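No paired analysis was possible because there is only 1 TRAMP library. In every tested alternative 0 members were called. With all 3 libraries the log2 fold change of Cd74 lay between -1.30 and -0.98 (adjusted p 0.247 to 0.663 over edgeR, limma-voom and DESeq2), that of Ciita between -1.31 and -1.09 (0.269 to 0.541) and that of H2-Aa between -2.63 and -2.42 (0.0771 to 0.156). Leaving out a Phf8-KO pool removes all residual degrees of freedom, so those are values with no test and counts of calls have none. The median of the members then ran from -1.79 (without Phf8-KO1) to -0.59 (without Phf8-KO2) and the class II sum from -2.10 to -0.43. H2-DMb1 ran from 0.62 without Phf8-KO1 to -0.33 without Phf8-KO2, H2-Eb1 from -3.39 to -0.23, H2-Aa from -3.20 to -1.998, Cd74 from -2.16 to -0.41 and Ciita from -1.42 to -0.94. With the members outside the H2-K1 to H2-D1 span alone, an alternative chosen after seeing the data, the median, then of Cd74 and Ciita only, was -1.10. The sum, then Cd74 alone, was -1.04. It could hardly differ from the full sum, of which Cd74 is nearly all.

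Counts over all genes depended on the method. Against 7 genes lower and 0 higher by edgeR's quasi-likelihood test, there were 19 lower and 1 higher with library size only, 856 and 1430 with no filter, and 747 and 1533 by DESeq2. A mean CPM of at least 1 left 0 lower, and limma-voom gave 0 lower; the cause was not tested. Upper quartile scaling moved the median of all genes by -0.15. H2-Ab1 had no value at a mean CPM of at least 1. Low counts limit Ciita and all chain genes, and their cause in the H2-K1 to H2-D1 span was not tested.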

Other observations

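Within 1 Mb of the H2-K1 to H2-D1 span, the tubulin gene Tubb5 had 3907 and 4122 counts in the knockout pools and 1552 counts in TRAMP. This gene was chosen after its values were seen. It stood far above the median of the 73 genes in the flanks of 1 Mb on each side. That median was 75 and 79 counts in the knockout pools and 46 counts in TRAMP. The class II genes H2-Ob and H2-Eb2, which are not among the 8 members, also held the X and Y box letters in their promoter windows, with 23 and 25 bases between them, while H2-DMb2 did not.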
